A study of Arabidopsis thaliana with 6 samples.

Results

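The genes described here are those transcribed at high level in Arabidopsis thaliana roots whose level fell in the hb13 mutant and stayed above 0.5 times the wild-type level. RNA sequencing compared roots of Col-0 wild-type seedlings with roots of the hb13 mutant in the same Col-0 background, at 5 days, with 3 libraries per genotype. The tissue label reads whole root, while the protocol describes dissection at about 0.5 cm from the root tip. The hb13 allele is not named in the labels, and HB13 is a homeodomain-leucine zipper protein of class I, a plant family of transcription factors. The authors' deposited table lists 708 entries with 1 expression value per genotype, all at a q-value of at most 0.05, and gives no value for a single library. A gene entered the set if the mean of both genotype values was at least 50 and the ratio of the hb13 to the wild-type value lay between 0.5 and 1. These thresholds were met by 55 entries. The rule named 29 loci to be left out, of which 2, GDH2 and BMY3, met the thresholds, and so 53 genes remained.

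Roots at this stage take up water and ions, release defence compounds and depend on sugar from the shoot. Transcripts at high level in such tissue include enzymes of glucosinolate breakdown, which release toxic products from stored sulphur compounds when cells are damaged, and transporters and enzymes of carbon use. Class I homeodomain-leucine zipper proteins bind a short pseudopalindromic DNA site as dimers and are known for roles in water deficit and growth.

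All 53 genes were protein-coding by the RefSeq annotation of assembly TAIR10.1, and 27 of them had a symbol of their own. Because the direction, the size and the level of the difference chose the genes, their values are a description and carry no test. Among the 167 entries with a mean of at least 50, 64 were lower in the mutant (38.3%), against 314 of all 708 entries (44.4%). Entries that were lower but stayed above 0.5 times the wild-type value made up 32.9% of the 167 and 32.9% of the 708. The q-value is the authors' own, and the spread between libraries and the read depth are unknown. In a whole-organ sample, fewer cells of a type and less RNA per cell cannot be told apart. HB13 itself is not among the listed entries, so its level gives no check of the genotype labels, and a list of changed genes holds no level for markers that did not change.

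The size of the falls was bounded in advance. The rule held the ratio between 0.5 and 1, and every listed entry had passed the authors' q-value limit. In the authors' deposited table the wild-type values of the 53 genes ran from 59.3 to 986 with a median of 108, and the hb13 values from 38.5 to 728 with a median of 65.2. The ratio of the hb13 to the wild-type value had a median of 0.691 and ran from 0.535 in SIP2 to 0.772 in AT2G44500, so no gene lay between 0.772 and the upper limit of 1. Ratios under 0.6 were found in 14 genes, ratios from 0.6 to 0.7 in 13 and ratios of 0.7 or more in 26. For scale, the 97 entries of the same level that were higher by less than 2-fold changed by a median of 0.51 on the log2 scale in the authors' deposited table, and the 53 genes by 0.53. The 178 entries with a mean under 50 that were lower but stayed above the same limit had a larger median change, 0.65 in the authors' deposited table. All these entries had passed the q-value limit, and whether that limit shapes differences between levels was not tested.

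**Figure D1:**
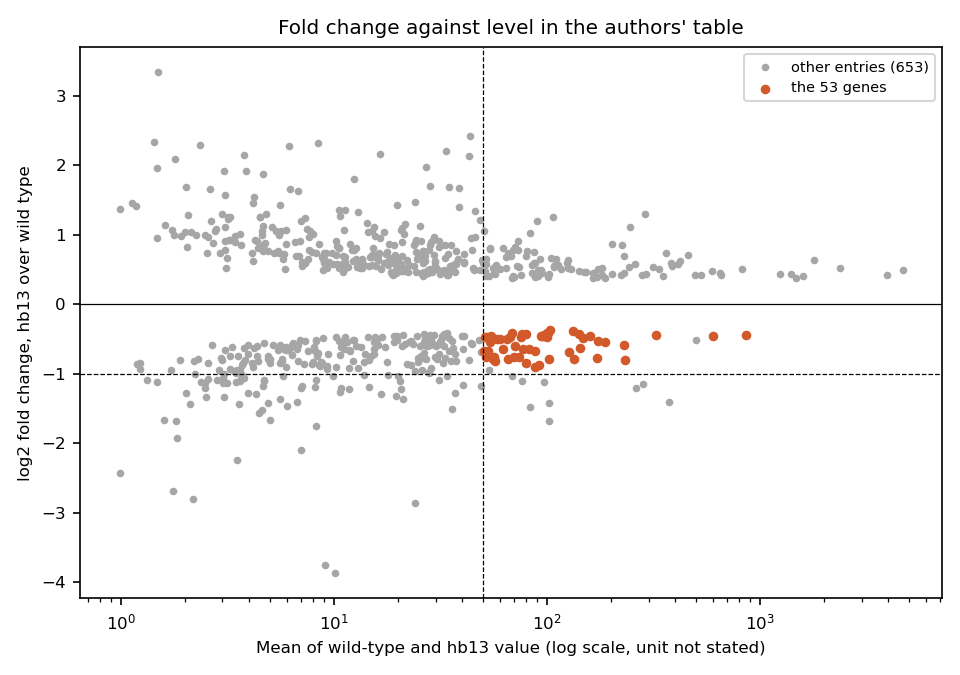
Each point is an entry of the authors' deposited table, with the mean of both genotype values on a log x axis and the log2 fold change of hb13 over wild type on the y axis. The 53 genes (orange) lie right of the dashed line at a mean of 50 and between the dashed line at -1 and 0. No listed entry lies close to 0 on either side, in a list limited to a q-value of at most 0.05.

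The level of the set was bounded below by the rule. The mean of both genotype values was under 100 in 34 genes, from 100 to 200 in 14 and 200 or more in 5. A mean of at least 100 was thus reached by 19 of the 53 genes. Among all 161 entries with a mean of at least 50, left-out loci aside, it was reached by 83. The median ratio in the 3 bands of the set was 0.674, 0.702 and 0.732, again among entries that had passed the q-value limit. The values next to the limits show how the set was bounded. Just inside the limit on level were the defensin-like gene AT3G59930 with a mean of 50.4, AT3G56360 with 51.1 and NUDT18 with 51.9. Just outside were NIT2 with a mean of 49.1, an entry naming AT1G23870, itself a left-out locus, and AT1G23880 together with 47.9, and the lectin gene JAL33 with 44.7. Next to the limit on the ratio, SIP2 (0.535), AT2G20670 (0.544) and ACR9 (0.558) were inside, and AT5G19120 (0.490), ERD5 (0.452) and AT3G15450 (0.376) were the nearest outside among loci the rule did not leave out. Of the loci it left out, AT5G22920 (0.465), DYL1 (0.459) and DIN10 (0.434) also lay between 0.376 and the limit. On the other side the ratios of AT2G44500 (0.772), PIP1;4 (0.763) and ADS1 (0.753) were nearest to 1, and the next entries above 1 were AGP14 (1.297), AT5G41670 (1.303) and ZIP2 (1.306).

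The authors' q-values broadly followed the size of the fall, but both come from the same comparison, so this order is no separate result. The smallest q-value of the authors' deposited table, 0.00246, was shared by 26 of the 53 genes (49.1%), against 342 of the 708 entries (48.3%). The ratios of these 26 genes ran up to 0.691, and those of the other 27 started at 0.687. AT5G57785 was the 1 gene that broke this split, with a ratio of 0.687 and 0.0154 as its q-value in the authors' deposited table. Among the 27 genes the order was looser. CP12-3, with a ratio of 0.707, had an authors' q-value of 0.0194, and ACR3, which fell less (0.723), had 0.00804. The genes that fell least, AT2G44500 and PIP1;4, stood at 0.0483 and 0.0477 in the q-values of the authors' deposited table.

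**Figure D2:**
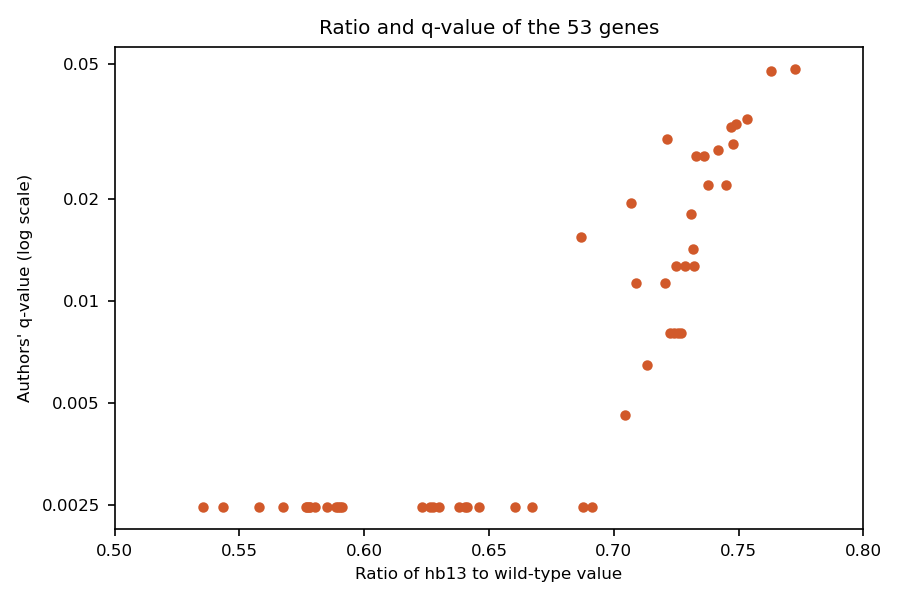
Each point is 1 of the 53 genes, with the ratio of the hb13 to the wild-type value on the x axis and the authors' q-value on a log y axis. The 26 genes at the smallest q-value, 0.00246, form the bottom row up to a ratio of 0.691. The q-values of the other genes rise unevenly with the ratio, up to 0.0483 at a ratio of 0.772.

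The promoters of the genes were read because gene starts were not used to choose the set. Windows of 300 bases, from 250 before to 50 after the annotated start in TAIR10.1, were searched on both strands for motifs of 6 to 9 letters. The labels' processing notes name TAIR10 as the build, and the deposited table holds no coordinates, so those given here are positions in TAIR10.1. The letters TATCCA, known from sugar-responsive plant promoters, were present in 18 of the 53 windows (34.0%), against 16.1% of the 27443 windows of protein-coding genes, 21.6% of the 684 of all listed genes and 12.1% of 91 windows of protein-coding genes with a mean of at least 50 that were higher by less than 2-fold. The letters ACGTGGC, a form of the abscisic acid response element, were present in 8 of 53 (15.1%), against 4.08% of all windows, 4.24% of those of listed genes and 0 of the 91. Both motifs were present in AT4G05070 and AT4G14500, and 24 genes had at least 1 of them. These shares are descriptions. The median ratio was 0.684 in the genes with TATCCA and 0.691 in those without it, and 0.706 with ACGTGGC and 0.688 without it.

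Several windows held a motif more than once, and these stretches are shown because they carry the motif counts. At least 3 matches to TATCCA were found in 3 of the 53 windows (5.66%), those of ACHT5, BT5 and AT4G05070, against 0.179% of all windows. The share of such windows was not computed for listed genes. In AT4G05070 the stretches around the TATCCA matches at 132 and 194 bases before the start overlapped an annotated exon. So did the stretch around its ACGTGGC match at 149 bases. The first line below gives 3 of the 4 matches upstream of ACHT5 (chr5:24707375-24707442, plus strand), the second the 3 upstream of BT5 (chr4:17672512-17672598, minus strand) and the third both ACGTGGC matches upstream of ABCI21 (chr5:17755795-17755898, minus strand). Each is written 5′ to 3′ on the strand of the gene, with matches in capitals, and TGGATA is TATCCA on the opposite strand.
ACHT5: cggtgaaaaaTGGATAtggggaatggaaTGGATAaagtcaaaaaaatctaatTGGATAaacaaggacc
BT5: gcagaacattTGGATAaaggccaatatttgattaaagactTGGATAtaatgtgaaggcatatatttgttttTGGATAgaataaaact
ABCI21: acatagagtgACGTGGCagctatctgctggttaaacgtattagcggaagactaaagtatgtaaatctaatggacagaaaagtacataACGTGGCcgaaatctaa

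Single ACGTGGC matches lay at 58 bases before the start in GDPD2 (chr5:16441579-16441621, plus strand), 59 in SIP2 (chr3:21293206-21293248, minus strand), 66 in CHIL (chr5:1563202-1563244, plus strand) and 153 in NSP3 (chr3:5562229-5562271, plus strand). These 4 stretches are shown because their genes belong to different pathways. In SIP2, CHIL and AT4G05070 the match overlapped a G-box, CACGTG, and GCCACGT is ACGTGGC on the opposite strand.
GDPD2: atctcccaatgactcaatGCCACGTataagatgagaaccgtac
SIP2: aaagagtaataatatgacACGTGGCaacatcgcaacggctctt
CHIL: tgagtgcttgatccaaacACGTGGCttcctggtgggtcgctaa
NSP3: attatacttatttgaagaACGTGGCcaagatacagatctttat

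The class I homeodomain-leucine zipper site CAATNATTG was present in 2 of the 53 windows (3.77%). It was in 1.07% of all windows, 1.90% of those of listed genes and 3 of the 91 of the genes that were higher (3.30%). Both are shown because HB13 belongs to this class. They lay 78 bases before the start of AT4G14500 (chr4:8333959-8334003, plus strand) and 46 before that of AT2G44380 (chr2:18324581-18324625, minus strand).
AT4G14500: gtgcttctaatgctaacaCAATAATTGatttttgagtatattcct
AT2G44380: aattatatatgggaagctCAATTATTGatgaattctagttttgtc

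Further motifs were searched in the same windows. The G-box CACGTG, with which matches to either form of the abscisic acid element can overlap, was present in 6 of 53 windows (11.3%) against 7.68% of all, 9.06% of those of listed genes and 3.30% of the 91. The second form of that element, ACGTGTC, was in 4 (7.55%) against 4.33%, 4.68% and 3.30%. The evening element AAAATATCT was in 0 of 53 against 2.82% of all windows and 2.63% of those of listed genes. Motifs known from promoters of ribosomal and dividing-cell genes were less common than in all windows, with TGGGCC in 3 (5.66%) against 15.5%, TGGGCT in 3 (5.66%) against 14.2% and AAACCCTA in 2 (3.77%) against 6.22%. In the windows of listed genes these 3 were present in 6.73%, 6.14% and 2.92%, and in the 91 genes that were higher in 4.40%, 7.69% and 0%. The letters TATAAA were in 34 (64.2%), against 63.7% of the 91, 63.3% of those of listed genes and 52.1% of all.

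**Figure D3:**
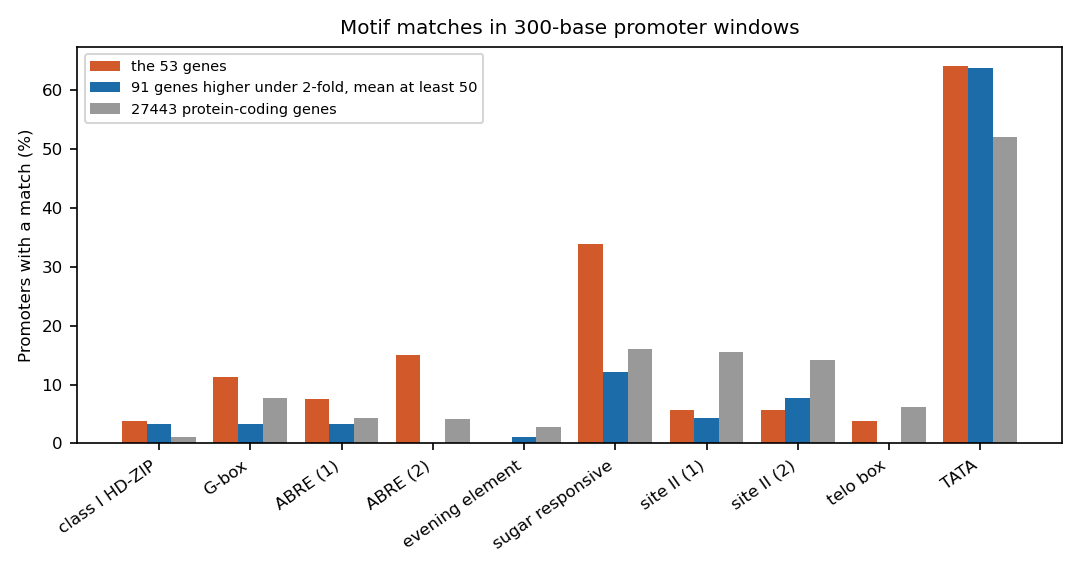
Bars give the percentage of promoter windows with at least 1 match to each motif, for the 53 genes (orange), 91 genes of the same level that were higher by less than 2-fold (blue) and 27443 protein-coding genes (grey). The first and second abscisic acid response elements (ABRE) are ACGTGTC and ACGTGGC, and the first and second site II motifs are TGGGCC and TGGGCT; the sugar-responsive bar of the 53 genes stands at 34.0% and the second ABRE bar at 15.1%.

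A gene of glucosinolate breakdown and a lectin gene had the highest values of the set. BGLU35, also called TGG5, is a root myrosinase, the enzyme that cleaves glucosinolates, and its authors' values were 986 in the wild type and 728 in hb13, a fall of 26.2%. The mannose-binding lectin gene AT1G52050 had authors' values of 696 and 509, a fall of 26.8%. Nitrile-specifier proteins direct the cleavage products of glucosinolates towards simple nitriles, and 2 of the 5 annotated genes were listed, both in the set. Of all annotated nuclear protein-coding genes, 2.49% were listed in either direction, which is the background for such family counts. Genes of the set are listed and lower by the rule, so the family counts include genes by selection. NSP3 had authors' values of 93.6 and 59.99, a fall of 35.9%. Its tandem neighbour NSP1 had authors' values of 76.3 and 53.8, a fall of 29.5%. Both are in the set and so were lower by the rule, while AT3G16410, the next nitrile-specifier gene, is not listed.

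Sequence shared with other loci touches 3 genes. Of the 100-base stretches in the exons of NSP1, 19.8% also occurred in AT3G16410. In AT3G59930 16.2% of such stretches occurred in AT5G33355, and in BGLU35 0.261% occurred in AT1G47600. How reads from such stretches were assigned is not given in the sources used here, so the values of NSP1 and AT3G59930 are uncertain in this respect. In the other 50 genes no such stretch occurred elsewhere. NSP1 and NSP3 shared none with each other. Of 42 annotated lectin genes of the mannose-binding and jacalin type, 4 were listed, where 2.49% of all annotated genes were. AT1G52050 was listed and lower by the rule that chose the set. The others were lower too, where 44.4% of all entries were, and lay outside the set by level. These were JAL33 (53.5 and 35.98), JR1 (10.4 and 6.22) and JAL22 (3.25 and 1.49), with authors' values in the wild type and hb13. JAL22, with a ratio of 0.459, was outside the set by ratio as well.

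In the flavonoid pathway both listed genes of high level belong to the chalcone isomerase family. TT5, the chalcone isomerase that closes the flavanone ring, had authors' values of 112 in the wild type and 81.9 in hb13, a fall of 26.7%. CHIL, a relative without isomerase activity that promotes the chalcone synthase reaction, had authors' values of 163 and 121, a fall of 25.8%. The ratios of this pair, 0.733 and 0.742, were nearly equal. Of 9 core pathway genes, a list written after the values were seen, 3 were listed. TT5 and CHIL were listed and lower by the rule that chose the set. The third, TT7, the flavonoid B-ring hydroxylase, fell further, from an authors' value of 28.0 to 13.02.

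Enzymes of lipids and terpenoids showed both strong and weak falls. GDPD2, a glycerophosphodiester phosphodiesterase that releases glycerol phosphate from deacylated phospholipids, had authors' values of 295 in the wild type and 170.1 in hb13. This fall of 42.3% was the largest among the 5 genes with a mean of at least 200. SQD2, which makes the sulfolipid of plastid membranes, had authors' values of 114 and 85.3, a fall of 25.1%. The next protein-coding gene to SQD2 in the annotation, the acyltransferase gene AT5G01210 on the opposite strand, went the other way, from an authors' value of 13.7 to 73.1. The fatty acid desaturase ADS1 had authors' values of 78.5 and 59.1, a fall of 24.7%. AT3G49190, of the wax ester synthase (WSD1-like) family, had authors' values of 223 and 153, and AT5G53380 of the same family, below the limit on level, 28.5 and 15.7. AT3G20160, annotated in the terpenoid synthase superfamily, fell by 25.2%.

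Carbon and amino acid metabolism included the largest fall of the set. SIP2, an alpha-galactosidase that acts on raffinose, had authors' values of 115 in the wild type and 61.5 in hb13, a fall of 46.5%. Its log2 fold change was -0.90 in the authors' deposited table. PCK2 encodes phosphoenolpyruvate carboxykinase, which turns oxaloacetate into phosphoenolpyruvate on the way to sugar, and had authors' values of 173 and 112, a fall of 35.4%. AGT2, annotated as an alanine:glyoxylate aminotransferase, had authors' values of 85.7 and 56.6, a fall of 34.0%. Of other genes of amino acid metabolism, GDH2 met the thresholds and was left out by the rule. CP12-3, of a family of small proteins that bind enzymes of the Calvin cycle, had authors' values of 68.0 and 48.1. The hydrolase gene AT2G32150 fell by 41.1% and the dehydrogenase-type gene AT2G37540 by 28.7%.

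Among proteins with ACT domains, which bind amino acids in many enzymes, 3 genes were in the set and 2 of them fell by over 40%. ACR9 had authors' values of 101.999 in the wild type and 56.9 in hb13, a fall of 44.2%. STY46, a kinase that phosphorylates transit peptides of plastid precursor proteins, had authors' values of 170.3 and 98.4, a fall of 42.2%. ACR3 had authors' values of 117 and 84.3, a fall of 27.7%. The family did not move as a block, since ACR8, at a low level, rose from an authors' value of 7.44 to 13.3. Of the 11 annotated ACR genes, 3 were listed.

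The 5 transport genes fell by 23.7% to 42.2%. PIP1;4, an aquaporin of the plasma membrane, had authors' values of 149.8 in the wild type and 114 in hb13. Of 18 aquaporin genes 2 were listed, and the other, PIP2E, rose from an authors' value of 23.6 to 35.9. STP4, a proton-coupled monosaccharide transporter, had authors' values of 87.8 and 63.3, a fall of 28.0%, and was the 1 listed gene of the 9 annotated STP genes. ABCI21, a soluble ATP-binding cassette protein, had authors' values of 205 and 142. AT5G26740, annotated as an organic solute transporter, had authors' values of 130.04 and 75.2, the largest fall of the 5. AT5G03380, of the heavy metal transport and detoxification superfamily, fell by 25.5%.

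The proteases and redox enzymes differed in the size of their falls. AT3G19390, a granulin-type cysteine protease, had authors' values of 372 in the wild type and 274 in hb13, a fall of 26.4%. MC9, a metacaspase known for its part in the breakdown of xylem vessel cells, had authors' values of 112 and 81.8, a fall of 26.8%. The 3 genes of the redox group each fell by more than 37%. MSRB5, a methionine sulfoxide reductase that repairs oxidised methionine, had authors' values of 108 and 67.5, and its tandem neighbour MSRB6, below the limit on level, 18.8 and 12.03. Their ratios, 0.628 and 0.641, were close, whereas MSRB8 rose from an authors' value of 3.48 to 7.27. ACHT5, an atypical thioredoxin, had authors' values of 82.95 and 47.9, and the nudix hydrolase NUDT18 had 65.2 and 38.5.

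The 7 genes of transcription and signalling had wild-type values between 64.7 and 101 and fell by 25.3% to 43.3%. ROPGEF11, which activates ROP GTPases by nucleotide exchange, had authors' values of 72.4 in the wild type and 41.1 in hb13. HSPRO2, named after a nematode resistance gene of sugar beet, had authors' values of 70.8 and 41.1. The BTB and TAZ domain gene BT5 had authors' values of 70.6 and 41.8, and BT2, outside the set by both level and ratio, 52.6 and 21.7. The falls of ROPGEF11, HSPRO2 and BT5 were close to each other, from 40.9% to 43.3%. LEP, an AP2/ERF transcription factor, had authors' values of 64.7 and 40.5, and AT4G13620 of the same DNA-binding superfamily 91.0 and 67.97. NAC084 had authors' values of 70.1 and 49.7, and the zinc finger gene AT3G54880 fell by 36.2%.

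A group of 5 genes was assigned to defence-type peptides and the cell wall. The knottin gene AT2G43535 had authors' values of 88.2 in the wild type and 52.1 in hb13, and the defensin-like AT3G59930 had 61.9 and 38.99. AT2G41810 encodes a cell wall protein of the DUF642 family, and it had authors' values of 184 and 134, a fall of 27.1%. Of the 10 annotated DUF642 genes 5 were listed, where 2.49% of all annotated genes were, and it was the 1 that was lower. By the authors' values, DGR1 rose from 160.1 to 291, AT4G32460 from 98.5 to 154, AT3G08030 from 172 to 234 and AT5G11420 from 20.7 to 35.4. The glycosyl hydrolase gene AT5G15870 fell by 27.4% and the O-fucosyltransferase gene AT2G44500 by 22.8%.

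**Figure D4:**
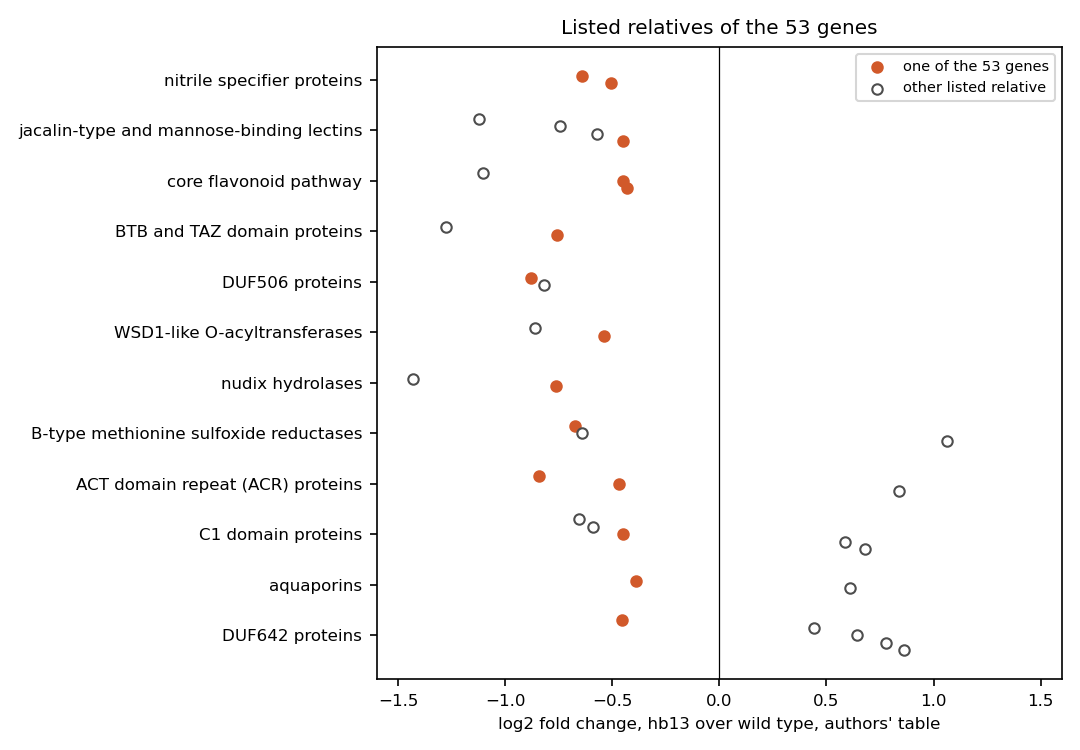
Points give the log2 fold change of hb13 over wild type in the authors' deposited table for every listed gene of 12 families, with genes of the set filled and other listed relatives open. In the DUF642 family the 1 filled point is at -0.46 and the 4 open points are between 0.44 and 0.86, while the nitrile-specifier, lectin, flavonoid, BTB and TAZ, DUF506, WSD1-like and nudix genes all lie below 0. Filled points lie below 0 by the rule that chose the set.

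The remaining 11 genes have little or no described role. AT3G03500, annotated as a TatD-related DNase, had authors' values of 275 in the wild type and 184 in hb13. AT3G15630 had authors' values of 216 and 126, a fall of 41.5%, and encodes a short protein of 107 residues. AT2G20670, of the DUF506 family, had authors' values of 119 and 64.6, the second largest fall of the set at 45.6%. The other listed DUF506 gene, AT4G32480, had authors' values of 47.6 and 26.98 and a similar ratio of 0.567. AT5G21940 had authors' values of 156 and 97.0, a fall of 37.7%. AT2G44380, of the C1 domain family, had authors' values of 109.9 and 80.3, while its tandem neighbour AT2G44370 rose from 41.2 to 61.8. The others, AT4G05070, AT1G17300, AT5G57785, AT5G16110, AT4G14500 and AT3G56360, had wild-type values from 59.3 to 77.6 and fell by 27.3% to 36.0%.

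**Figure D5:**
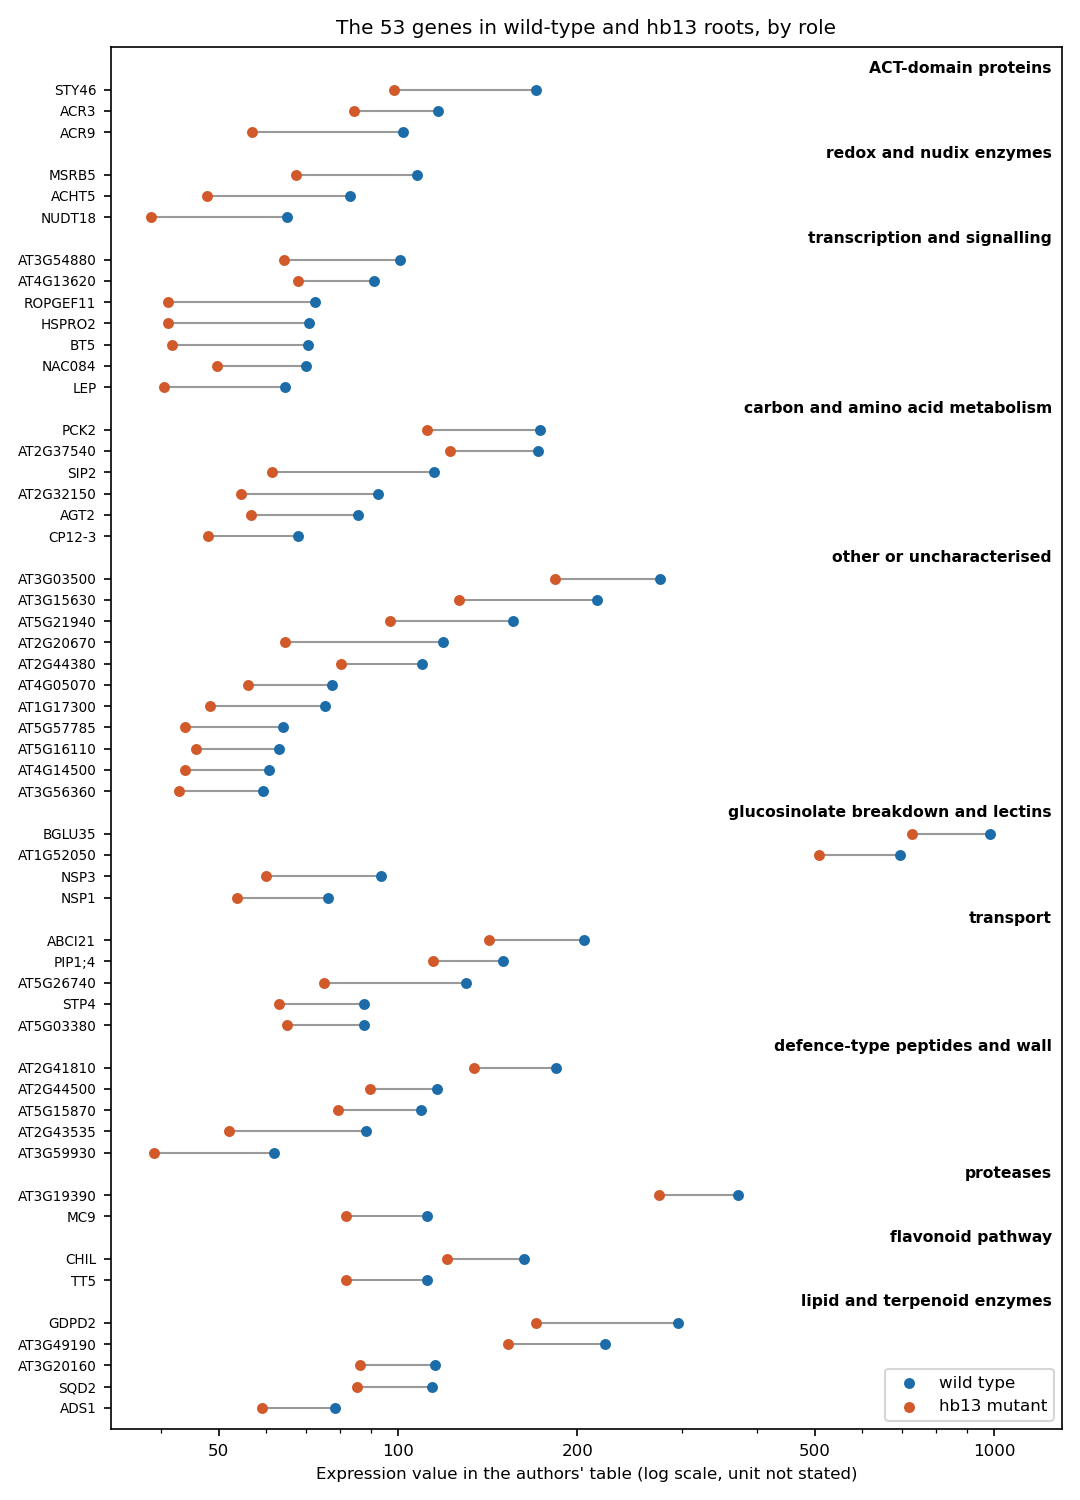
Each row is 1 of the 53 genes, grouped by role, with its wild-type (blue) and hb13 (orange) value in the authors' deposited table on a log axis. BGLU35 and AT1G52050 stand apart at the right, with values of 509 or more in both genotypes, and the widest gaps are those of SIP2, AT2G20670 and ACR9.

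Gene classes chosen for a root included cell wall proteins, peroxidases and aquaporins. Of 28 classes, matched by locus or by words of the annotation, 6 held at least 1 of the 53 genes, and 7 genes were in a class. Matching by words can miss or misplace genes, so counts of listed genes are not given for the classes matched in that way. Any family list matched in that way shares this limit. The 7 genes are therefore not set against a share over all entries and are not read as many or few. In the classes matched by locus, LTI78 was the 1 listed gene of 12 abscisic acid and cold responsive genes. It was lower, below the limit on level, where 44.4% of all entries were lower. ASN1 was the 1 listed of 7 glutamine and asparagine synthetase genes and fell from an authors' value of 42.4 to 5.86. Aquaporins had 2 of 18 genes listed, ATG8 autophagy genes 0 of 9 and sucrose synthases 0 of 6. Of all annotated nuclear protein-coding genes, 2.49% were listed.

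Among the families of the genes themselves, GDPD2, SQD2, PCK2, STP4, MC9 and CP12-3 were each the 1 listed gene of their family. Of 18 annotated nudix hydrolases 2 were listed, NUDT18 and NUDT8, and both were lower. Of 141 annotated C1 domain genes 5 were listed, and 3 of the 5 were lower. For comparison, 2.49% of all annotated genes were listed and 44.4% of all entries were lower. NUDT18 and, of the C1 domain genes, AT2G44380 were lower by the rule.

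The genes were spread over the nuclear chromosomes, with 8, 9, 13, 8 and 15 on chromosomes 1 to 5. Chromosome 1 held 15.1% of the set and 26.0% of the listed protein-coding genes, and chromosome 5 held 28.3% and 21.8%. A listed gene as its direct neighbour among annotated protein-coding genes was found for 7 of the 53 genes (13.2%) and for 88 of 631 other listed protein-coding genes (13.9%). In 5 of these 7 cases the neighbour was lower too, where 44.4% of all entries were. The pair of NSP1 and NSP3 counts once for each, and both are lower by the rule. The other lower neighbours were MSRB6, AT1G17310 and P1R1, while AT2G44370 and AT5G01210 were higher. Besides the pairs already described, AT1G17300 lay next to the MADS-box gene AT1G17310, which fell from an authors' value of 11.2 to 6.27, and AT5G57785 next to P1R1, which fell from 5.13 to 2.47. Annotated genes on the opposite strand, none of them listed, overlapped 10 of the 53, namely ROPGEF11, AT3G15630, AT3G49190, AT3G54880, BT5, ACHT5, AT5G21940, AT2G37540, ACR3 and AT4G14500, the last of which also holds a microRNA gene on its own strand. The libraries kept strand, and whether the counting used it is not given in the sources used here, so the values of these genes are uncertain to that extent. The encoded proteins had a median length of 321 residues, from 73 to 773, and the 91 proteins of the genes that were higher had a median of 320.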

How the data were processed

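Per the labels' protocols, polyadenylated RNA was made into directional libraries and sequenced as single-end reads, from 3 wild-type and 3 hb13 libraries grouped by title. The submitters' processing notes name TopHat2 2.0.13, Cufflinks 2.1.1, Cuffdiff and the build TAIR10, without saying what each was used for. The authors deposited 1 table of 708 entries. Per the file headers it holds an expression signal for each genotype, treated here as 1 value for the group on a scale that is not named, a log2 fold change deposited by the authors, and a q-value deposited by the authors. For the 53 genes the largest gap between this log2 fold change and one computed from both values was 6.12e-06. Depth per library, and so the precision of each value, is unknown.

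With no value per library, the planned limma fit was replaced by a description, and no test was run. The members and lists were chosen with earlier results of these data known. Values are given for the genes with the highest means, the lowest ratios and the smallest distance to a threshold, for class members and for paralogs or neighbours; any other gene was named, and roles and the 17 family lists written, after the values were seen. Symbols and descriptions were looked up by locus tag in RefSeq (TAIR10.1), where 695 of 708 entries were found. Motif searches were checked on simulated sequences. Exact 100-base copies of exon sequence were searched with BLAST. Python 3.11.15, pandas 2.3.3, NumPy 2.4.6, SciPy 1.17.1 and matplotlib 3.10.9 were used.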

Additional observations from a re-analysis of the deposited data

How the results depend on the processing

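No paired analysis was possible because single libraries have no values here. For the same reason the replicate block and leaving out each replicate were not run, and protein composition was not computed. The count of 53 genes became 32 at a q-value under 0.01, 19 at a mean of at least 100 and 29 at a log2 fold change of -0.5 or lower, as each can only remove genes. It was 61 at a mean of at least 40, 39 with both values at least 50 and 55 with the left-out loci kept. The median ratio of 0.691 became 0.627 at a q-value under 0.01 and 0.713 both at a mean of at least 100 and with both values at least 50. Without the loci left out by the rule, 36.0% of the 161 entries with a mean of at least 50 were lower. The share was 27.7% among the 83 with a mean of at least 100. The Wilson 95% interval of the 36.0% was 29.0% to 43.7% and covers counting of entries only. The 83 entries are part of the 161, so the interval is no test of this difference. The 7 genes in a class became 3 at a mean of at least 100. With 250 bases before the start alone, the windows with AAACCCTA went from 2 to 1, and the other 9 motif counts stayed within 1.5 times. The unknown depth limits every ratio given.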
